A study of Mus musculus with 9 samples.

Results

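The transcripts described here are those of 7 cholesterol synthesis genes, Hmgcs1, Idi1, Fdps, Sqle, Lss, Cyp51 and Insig1, which were taken by their symbols from the 50559 genes listed in each deposited count table. All 7 were among the 16618 genes that passed the filter on low counts. RNA was sequenced from CD45+CD11b+ myeloid cells sorted from quadriceps of mdx mice, which are deficient in dystrophin and develop muscle inflammation, at 4.5 weeks of age. The mice had received vehicle, spironolactone, an antagonist of the mineralocorticoid receptor, or prednisolone, an agonist of the glucocorticoid receptor, for 7 days. Each group had 3 libraries, and each library was a pool of cells from 3 mice, so a value is an average over animals, and each group included males and females in proportions that are not given per pool. All groups were mdx, and no healthy muscle and no untreated library was analysed here. The comparisons ask how the genes of cholesterol synthesis in muscle myeloid cells differed with each drug and between the drugs.

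Cholesterol is built from acetyl-CoA through mevalonate, the isoprenoid diphosphates, squalene and lanosterol, each step carried out by its own enzyme. The transcription factor SREBP2 switches on the genes of these enzymes when sterols in the endoplasmic reticulum are low, and it is held back in that membrane, bound to SCAP, by the INSIG proteins when sterols are high. In macrophages this pathway runs beside uptake of lipoproteins and engulfed cells and beside efflux driven by the LXR receptors, and its intermediates also feed the prenylation of small GTPases.

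Between 31469815 and 32943512 counts fell on genes in each library, so that the member with the fewest counts, Idi1, had 131 to 223 counts and that with the most, Hmgcs1, had 856 to 1380. All 8 myeloid markers, among them Ptprc (CD45) and Itgam (CD11b), were detected, with summed levels of 16290 to 19400 CPM (counts scaled to a common library total) in each library. Spironolactone replicate 3 had the lowest level of Xist, used below as a covariate for sex (65.3 CPM, against 217.2 to 711.8 CPM). It also had the highest summed levels of skeletal muscle (618.8 CPM) and erythroid markers (297.8 CPM). Vehicle replicate 1 stood apart in other measures. It had the largest share of reads outside genes (9.33%, against 5.76% to 8.37%) and the lowest summed level of the 6 monocyte markers (1497 CPM, against 1798 to 3446 CPM), and values without it are therefore given beside those of the 7 genes that it moved most. Nothing in the labels ties same-numbered libraries of different groups to 1 animal or batch, and p-values measure the spread between pools.

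The 7 genes differed in abundance. On a scale that corrects for exon length (TPM, mean ± SD over the 9 libraries), Hmgcs1 was at 32.3 ± 4.33 TPM, Insig1 at 30.1 ± 4.395, Cyp51 at 21.2 ± 5.30, Fdps at 19.5 ± 3.87, Sqle at 9.07 ± 2.65, Idi1 at 6.92 ± 1.22 and Lss at 2.94 ± 0.554. In this order Hmgcs1 and Insig1, Cyp51 and Fdps, and Sqle and Idi1 differed by less than 1 SD. By TPM Hmgcs1 was more abundant than 72.6% of the tested genes with a length, and Lss than 25.9%. The length covers all annotated exons of a gene (11359 bases for Lss, 8885 for Sqle, 3549 for Idi1), which can exceed that of the transcripts present. The order and ranks depend on it, since by CPM the mean of Lss (7.40) was above that of Idi1 (5.46).

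Promoter sequence was available for 5 of the 7 members in RefSeq's table (build GRCm38.p6), with no entry for Fdps and Sqle. The 250 bases before the start of transcription are shown for 3 of them. Of these 5 members, Hmgcs1 was the only one whose window held a match to TCACNCCAC. Other forms of the sterol regulatory element were not searched for, so a window without this match may still hold one. Cyp51 had the highest and Lss the lowest median correlation with the other members over all 9 libraries. Capitals mark matches, on either strand, to TCACNCCAC (a form of the sterol regulatory element), CCAAT (the NF-Y box) and GGGCGG (the GC box bound by Sp1). Sequences run 5′ to 3′ on the strand of the gene, Hmgcs1 from chr13:119690101-119690350 (plus strand), Cyp51 from chr5:4104698-4104947 (minus strand) and Lss from chr10:76531355-76531604 (plus strand).
Hmgcs1: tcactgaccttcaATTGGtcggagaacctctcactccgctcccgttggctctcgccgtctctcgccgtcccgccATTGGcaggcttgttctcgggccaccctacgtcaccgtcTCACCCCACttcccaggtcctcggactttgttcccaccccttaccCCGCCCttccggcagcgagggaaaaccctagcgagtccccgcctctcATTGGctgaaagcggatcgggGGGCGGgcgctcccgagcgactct
Cyp51: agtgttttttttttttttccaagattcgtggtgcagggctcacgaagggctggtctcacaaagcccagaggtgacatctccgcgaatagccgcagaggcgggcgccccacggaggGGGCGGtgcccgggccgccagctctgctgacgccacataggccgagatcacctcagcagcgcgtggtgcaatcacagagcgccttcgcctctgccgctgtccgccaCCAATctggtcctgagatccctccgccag
Lss: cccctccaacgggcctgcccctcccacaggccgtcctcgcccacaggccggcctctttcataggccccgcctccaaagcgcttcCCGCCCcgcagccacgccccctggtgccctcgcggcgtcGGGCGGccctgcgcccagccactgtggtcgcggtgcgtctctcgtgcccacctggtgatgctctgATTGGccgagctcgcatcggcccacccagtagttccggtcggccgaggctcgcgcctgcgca

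The match to TCACNCCAC in the Hmgcs1 window ended 129 bases before the start, and this motif was found in 1.05% of all 32851 promoter windows of the same length. CCAAT was found in the windows of all 5 members, nearest to the start in Idi1 at 10 bases and in Cyp51 at 25 bases, against 33.8% of all windows. GGGCGG was also found in all 5, against 32.7% of all windows. Among 17 windows of 14 other enzymes of the pathway, 11 held CCAAT, 13 held GGGCGG and 0 held TCACNCCAC. A glucocorticoid or mineralocorticoid receptor element written as AGAACA and TGTTCT with 3 bases between them was in 0 of the 5 member windows and in 0.00913% of all windows. The motifs do not overlap in the 3 windows shown, and a match is a stretch of letters, not a measured binding site.

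Hmgcs1 encodes the cytosolic HMG-CoA synthase, an enzyme of the early steps before mevalonate. Its level was 38.6, 43.05 and 40.1 CPM in the vehicle libraries, 35.3, 39.0 and 27.1 CPM in the spironolactone libraries, and 41.1, 35.6 and 40.4 CPM in the prednisolone libraries. Spironolactone replicate 3 was the lowest of the 9, and the 3 groups overlapped. The standard errors of Hmgcs1 were the smallest among the 7 genes, and its log2 fold change was -0.26 ± 0.12 (SE) with spironolactone relative to vehicle (95% interval -0.53 to 0.0001755, edgeR quasi-likelihood adjusted p = 0.539) and -0.06 ± 0.12 with prednisolone relative to vehicle (adjusted p = 0.885). With 1 library left out, the value for spironolactone lay between -0.38 (without spironolactone replicate 2, adjusted p = 0.326) and -0.13 (without spironolactone replicate 3, adjusted p = 0.938).

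Idi1 encodes the isomerase that interconverts the isoprenoid building blocks. It was at 3.98, 6.96 and 6.08 CPM with vehicle, 5.51, 4.68 and 4.401 CPM with spironolactone, and 6.44, 5.47 and 5.64 CPM with prednisolone. Vehicle replicates 1 and 2 were the lowest and the highest library, so that the vehicle group spanned both treated groups. Relative to vehicle the estimate for spironolactone was -0.22 ± 0.21 on the log2 scale (adjusted p = 0.825) and that for prednisolone 0.05 ± 0.21 (adjusted p = 0.951). With 1 library left out, the value for spironolactone lay between -0.42 (without vehicle replicate 1) and -0.05 (without vehicle replicate 2), and the value for prednisolone was -0.155 without vehicle replicate 1 (adjusted p = 0.741). Rows for 5 pseudogenes named after Idi1 held 0 to 24 counts in each library.

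Fdps encodes farnesyl diphosphate synthase, whose product is the branch point between sterols and prenylation. Its level was 16.7, 28.9 and 26.9 CPM with vehicle, 15.03, 23.1 and 17.8 CPM with spironolactone, and 24.0, 19.9 and 19.1 CPM with prednisolone. Vehicle replicate 1 and spironolactone replicate 1 were the lowest, and the groups overlapped. Its log2 fold change relative to vehicle was -0.37 ± 0.21 for spironolactone (95% interval -0.82 to 0.08, adjusted p = 0.635) and -0.20 ± 0.20 for prednisolone (adjusted p = 0.728). With 1 library left out, the value for spironolactone lay between -0.58 (without vehicle replicate 1, adjusted p = 0.184) and -0.22 (without vehicle replicate 2, adjusted p = 0.822).

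Sqle encodes squalene epoxidase, the rate-limiting enzyme of the part of the pathway that is committed to sterols. Its level was 12.5, 19.8 and 20.9 CPM with vehicle, 13.3, 18.6 and 9.88 CPM with spironolactone, and 26.4, 20.2 and 19.3 CPM with prednisolone. All 3 spironolactone libraries lay below all 3 prednisolone libraries, although spironolactone replicate 2 and prednisolone replicate 3 were close, and the vehicle libraries overlapped both. The log2 fold change of spironolactone relative to prednisolone was -0.66 ± 0.25 (95% interval -1.20 to -0.11, edgeR adjusted p = 0.1455), the largest difference among the 7 genes in the 3 comparisons. DESeq2 gave -0.67 ± 0.23 with an adjusted p of 0.0386. Without any 1 library the log2 fold change by edgeR lay between -0.92 and -0.46, with adjusted p from 0.0645 to 0.367. Without the filter on low counts edgeR also called Sqle (adjusted p = 8.69e-05), and the call therefore depended on the tool and the filter. Relative to vehicle Sqle was at -0.35 ± 0.25 with spironolactone (edgeR adjusted p = 0.727), and at -0.55 without vehicle replicate 1 (adjusted p = 0.419). The ends of its range with 1 library left out were -0.62 (without spironolactone replicate 2, adjusted p = 0.416) and -0.15 (without spironolactone replicate 3, adjusted p = 0.983).

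Lss encodes the enzyme that closes the rings of lanosterol. It was at 9.21, 6.30 and 6.33 CPM with vehicle, 6.74, 7.24 and 6.90 CPM with spironolactone, and 9.63, 6.88 and 7.37 CPM with prednisolone. Vehicle replicate 1 and prednisolone replicate 1 were above all other libraries, and the remaining 7 were between 6.30 and 7.37 CPM. The spironolactone libraries were the least spread of any member (SD 0.255 CPM, n = 3), and the log2 fold change was -0.07 ± 0.19 with spironolactone and 0.13 ± 0.19 with prednisolone relative to vehicle (adjusted p = 0.957 and 0.828). Without vehicle replicate 1 these values were 0.14 and 0.33 (adjusted p = 0.848 and 0.362).

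Cyp51 encodes the demethylase that acts on lanosterol. It was at 20.0, 41.03 and 31.1 CPM with vehicle, 19.8, 29.4 and 19.4 CPM with spironolactone, and 33.9, 29.1 and 28.7 CPM with prednisolone. Vehicle replicate 1 sat with the lower spironolactone libraries, and the vehicle group, with a mean of 30.7 CPM, had an SD that was the largest of any member in any group. Relative to vehicle its log2 fold change was -0.43 ± 0.24 for spironolactone (95% interval -0.97 to 0.12, adjusted p = 0.650) and -0.0074 ± 0.24 for prednisolone (95% interval -0.55 to 0.53, adjusted p = 0.993). The value for spironolactone was -0.66 without vehicle replicate 1 (adjusted p = 0.220) and -0.16 without vehicle replicate 2 (adjusted p = 0.881), the ends of its range with 1 library left out. For prednisolone it was -0.24 without vehicle replicate 1 (adjusted p = 0.541).

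Insig1 encodes the membrane protein that retains the complex of SCAP and SREBP in the endoplasmic reticulum, and it is itself a target of SREBP. It was at 30.9, 39.4 and 42.01 CPM with vehicle, 29.5, 33.5 and 26.8 CPM with spironolactone, and 36.0, 30.6 and 26.2 CPM with prednisolone. Vehicle replicates 2 and 3 were above every treated library, and vehicle replicate 1 was within the range of both treated groups. Its log2 fold change relative to vehicle was -0.32 ± 0.14 for spironolactone (95% interval -0.62 to -0.02, edgeR adjusted p = 0.4996) and -0.28 ± 0.14 for prednisolone (95% interval -0.58 to 0.03, adjusted p = 0.403). Without vehicle replicate 1 the same values were -0.45 (adjusted p = 0.196) and -0.40 (adjusted p = 0.0947). The values nearest 0 with 1 library left out were -0.24 for spironolactone, without vehicle replicate 3 (adjusted p = 0.695), and -0.17 for prednisolone, without prednisolone replicate 3 (adjusted p = 0.751).

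**Figure D1:**
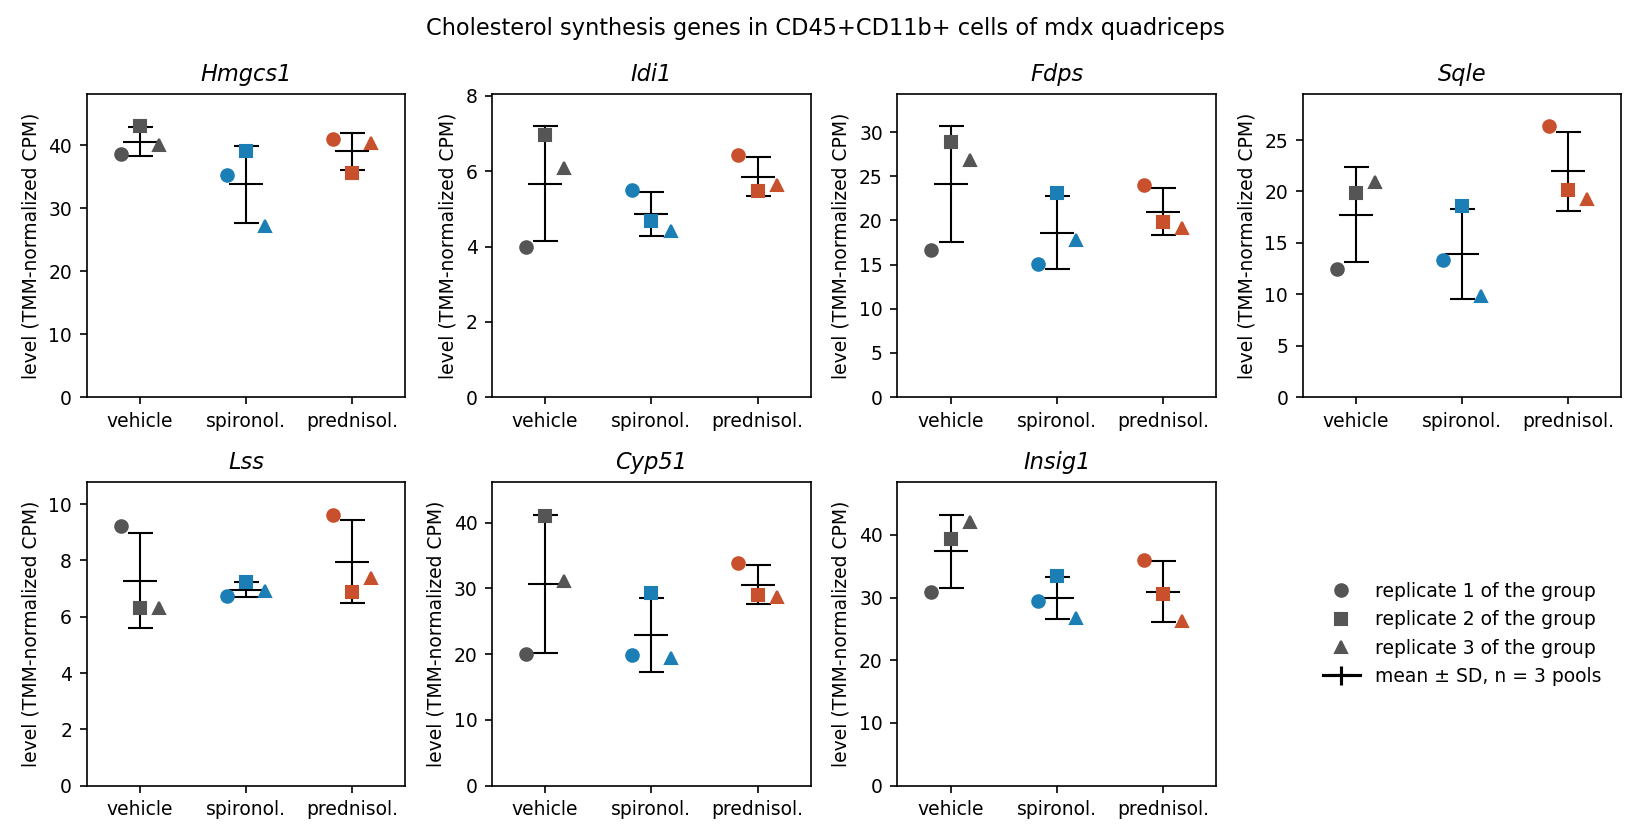
Levels of the 7 cholesterol synthesis genes (vertical axis, CPM after TMM normalization, starting at 0) in each library of the vehicle, spironolactone and prednisolone groups, with replicate numbers by symbol and mean ± SD (n = 3 pools) as black bars. Sqle is the only gene in which all spironolactone libraries (9.88 to 18.6 CPM) lie below all prednisolone libraries (19.3 to 26.4 CPM), and in Cyp51 and Fdps vehicle replicate 1 lies far below the other vehicle libraries.

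With prednisolone relative to vehicle, 0 of the 7 genes passed an adjusted p of 0.05 by edgeR and 0 by DESeq2, and 0 had an unadjusted p under 0.05 by either tool. Over all genes tested, 293 of 16618 (1.76%) passed by edgeR and 4.64% by DESeq2, and 14.2% and 15.4% had an unadjusted p under 0.05. The estimates lay on both sides of 0, with 4 of 7 below it and a median of -0.0074, where the median over all genes was -0.014 and 52.2% were below 0. The groups overlapped for each of the 7 genes, whereas in 19.7% of all genes they did not, 9.27% with the 3 prednisolone libraries below the 3 vehicle libraries. The intervals were wide, and for Sqle, at 0.31 ± 0.24, the 95% interval ran from -0.23 to 0.84. Without vehicle replicate 1 Sqle was at 0.11 (adjusted p = 0.861). Without that library the median was -0.16, and 2 members, Fdps and Insig1, had an unadjusted edgeR p under 0.05. Fdps was at -0.41 without vehicle replicate 1 (adjusted p = 0.164) and at -0.05 without vehicle replicate 2 (adjusted p = 0.969).

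With spironolactone relative to vehicle, the estimates of all 7 genes were below 0, between -0.43 (Cyp51) and -0.07 (Lss), with a median of -0.32, whereas the median over all genes was at 0.000090 and 8307 of 16618 were below 0. By edgeR 0 of the 7 passed an adjusted p of 0.05, against 3 of 16618 genes (0.0181%). Of the 7 only Insig1 had an unadjusted p under 0.05 by edgeR, against 9.29% of all genes, and 2 had one by DESeq2, against 9.49%. DESeq2 also called 0 members, against 1.6% of all genes. No member had its 3 spironolactone libraries below the 3 vehicle libraries, a pattern seen in 6.5% of all genes. The sizes depended on single libraries. Without vehicle replicate 1, 6 of 7 estimates were below 0 (Lss was at 0.14), the median was -0.45 and 6 members had an unadjusted p under 0.05 (11.2% of all genes), with a smallest adjusted p of 0.184 for Fdps. Without spironolactone replicate 3 the median was -0.16, and 0 members had an edgeR p under 0.05 before or after adjustment.

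Between the drugs, the estimates of all 7 genes were lower with spironolactone than with prednisolone, with a median of -0.21 (all genes 0.026, and 46.6% of all genes below 0). By edgeR 0 of the 7 passed the threshold, against 859 of 16618 genes (5.17%), with 1 member, Sqle, at an unadjusted p under 0.05, against 22.5% of all genes. DESeq2 called 1, again Sqle, against 10.1% of all genes, with 2 at an unadjusted p under 0.05, against 23.3%. The groups did not overlap for 1 of 7, with spironolactone below prednisolone, against 15.2% of all genes. Cyp51 followed Sqle in size at -0.42 ± 0.24 (95% interval -0.96 to 0.12, adjusted p = 0.348), then Idi1 at -0.27 ± 0.21, Hmgcs1 at -0.21 ± 0.12, Lss at -0.19 ± 0.19, Fdps at -0.17 ± 0.21 and Insig1 at -0.05 ± 0.14. With 1 library left out, Cyp51 ranged from -0.64 to -0.31, Idi1 from -0.37 to -0.19, Hmgcs1 from -0.32 to -0.07, Lss from -0.29 to -0.03 and Fdps from -0.36 to -0.04. The order after Sqle changed with the library left out. Without spironolactone replicate 3 or without prednisolone replicate 1, 6 of 7 were below 0, with Insig1 above it. Since the 3 comparisons share their libraries in pairs, the directions of the members in one do not stand apart from those in another.

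**Figure D2:**
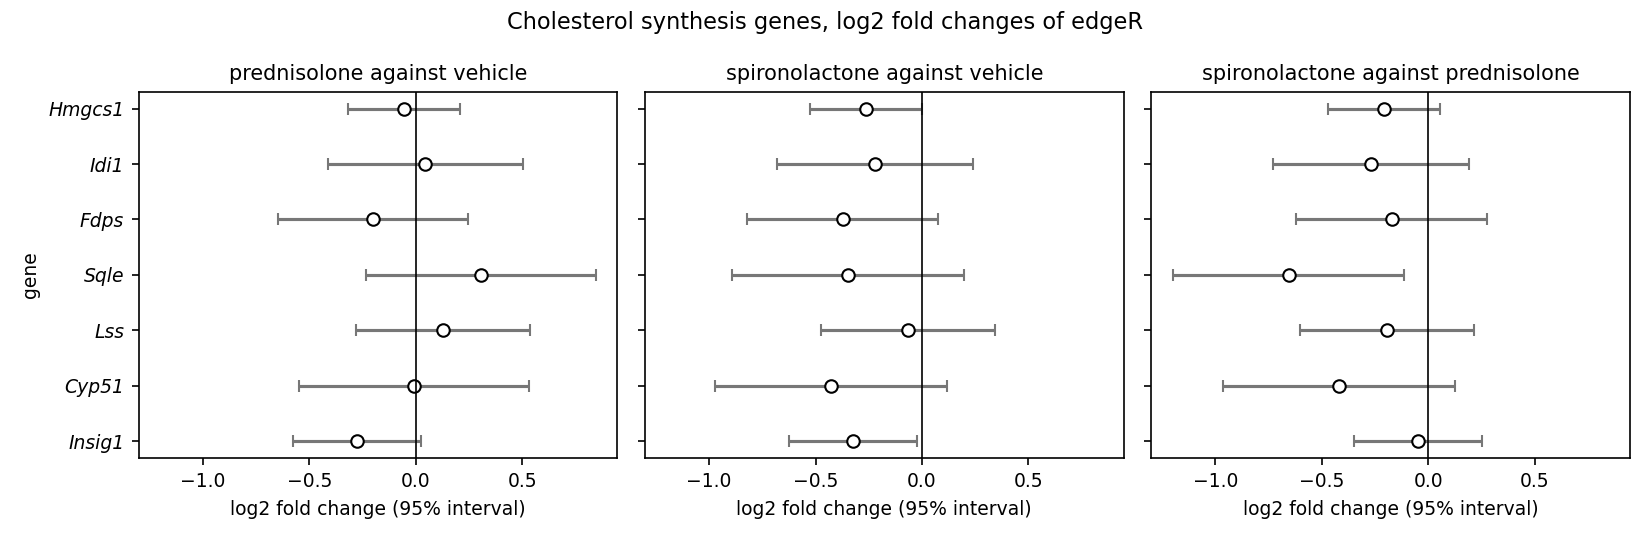
Log2 fold changes (points) with 95% intervals (bars) of the 7 genes by edgeR in the 3 comparisons, open symbols marking adjusted p of 0.05 or more. Every symbol is open, and only the intervals of Insig1 for spironolactone against vehicle (-0.62 to -0.02) and of Sqle for spironolactone against prednisolone (-1.20 to -0.11) leave out 0.

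The 6 genes other than Lss varied together across libraries. With each gene's log2 CPM centred and scaled over the 9 libraries, the mean over the 7 genes was -0.487, 0.877 and 0.584 SD in the vehicle libraries, -0.703, 0.0956 and -1.25 in the spironolactone libraries, and 0.995, -0.0695 and -0.0368 in the prednisolone libraries. Prednisolone replicate 1 and vehicle replicate 2 were the high libraries, and spironolactone replicate 3 was the low one, with 0 of its 7 genes above their mean. The summed level of the 7 genes ranged from 112.3 CPM in that library to 185.5 CPM in vehicle replicate 2, which had the highest level of 4 of the 7 genes. The range within the vehicle group (131.9 to 185.5 CPM) took in all 3 prednisolone libraries (146.7 to 177.4 CPM) and 1 of the spironolactone libraries.

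**Figure D3:**
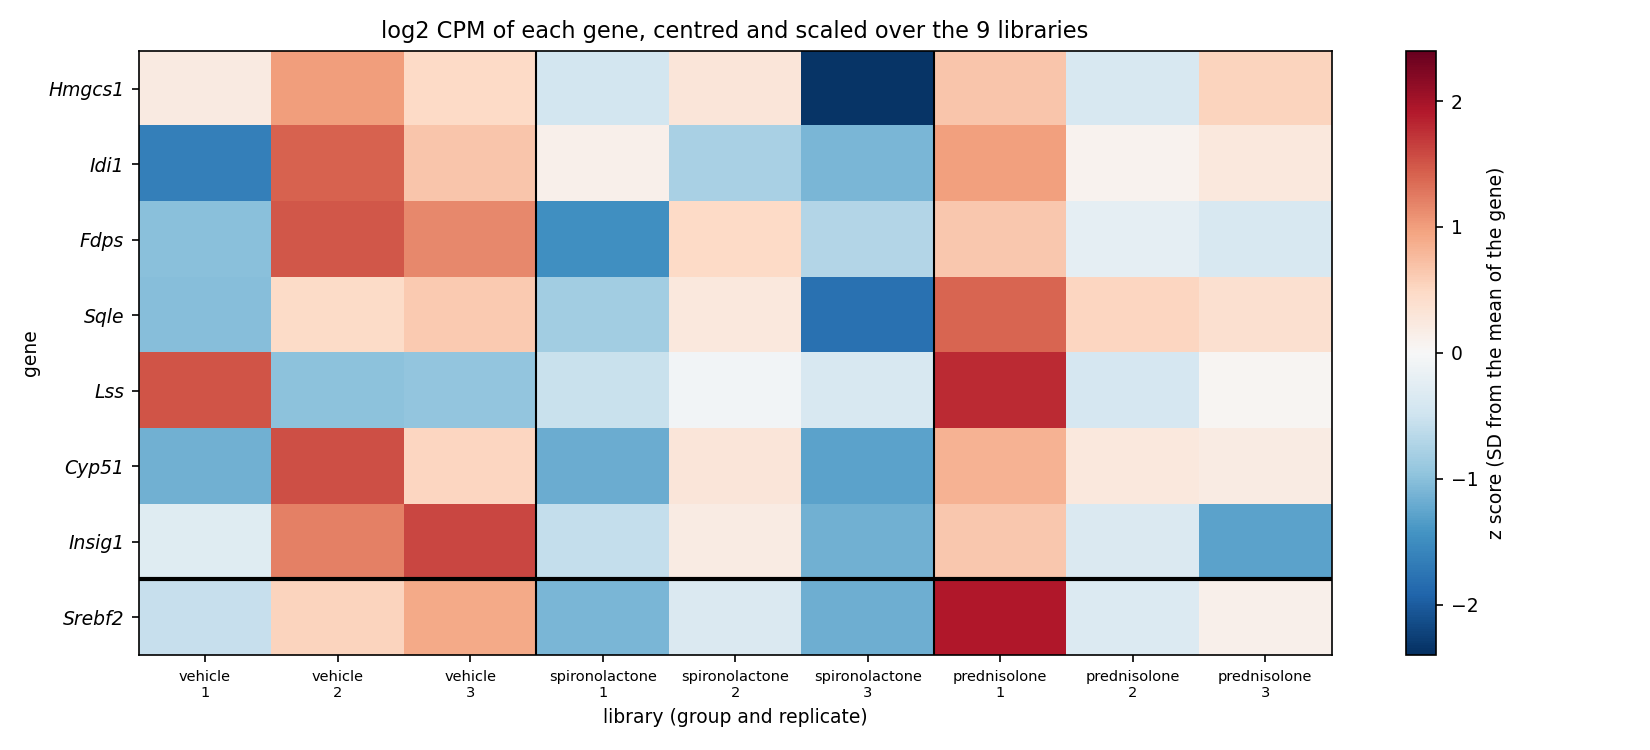
Log2 CPM of the 7 genes and, below the black line, of Srebf2 (rows), each centred and scaled over the 9 libraries (columns), with red above and blue below the mean of the gene in SD. Spironolactone replicate 3 is blue in every row, prednisolone replicate 1 is red in every row, and in vehicle replicate 1 Lss is strongly red, Hmgcs1 faintly red and the other 5 members blue.

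Over the 21 pairs of the 7 genes, Pearson's r of log2 CPM across the 9 libraries ranged from -0.294 to 0.907 with a median of 0.603, and 17 pairs were above 0. These are descriptions of 9 pools that share total depth, sorting and cell mixture. The highest were Fdps with Cyp51 (0.907), Sqle with Cyp51 (0.874) and Fdps with Insig1 (0.831). After removal of the group means the median was 0.642 with 16 pairs above 0, and without vehicle replicate 1 it was 0.648 with 19 pairs above 0. The 6 genes other than Lss had a median r of 0.586 to 0.76 to the other members, a level that 1.79% (Cyp51) to 6.67% (Hmgcs1) of all tested genes reached. After removal of group means Sqle had the highest median (0.797, against 0.758 for Cyp51). Lss had a median r of -0.149, which 60.7% of all tested genes reached, and of -0.262 after removal of group means, which 67.9% reached. Without vehicle replicate 1, where Lss was high and most others were low, its median r was 0.105, still the lowest of the 7 but with 4 of 6 pairs above 0, and its CCAAT and GGGCGG matches shown above are motifs that the 4 other members with a promoter entry also hold.

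**Figure D4:**
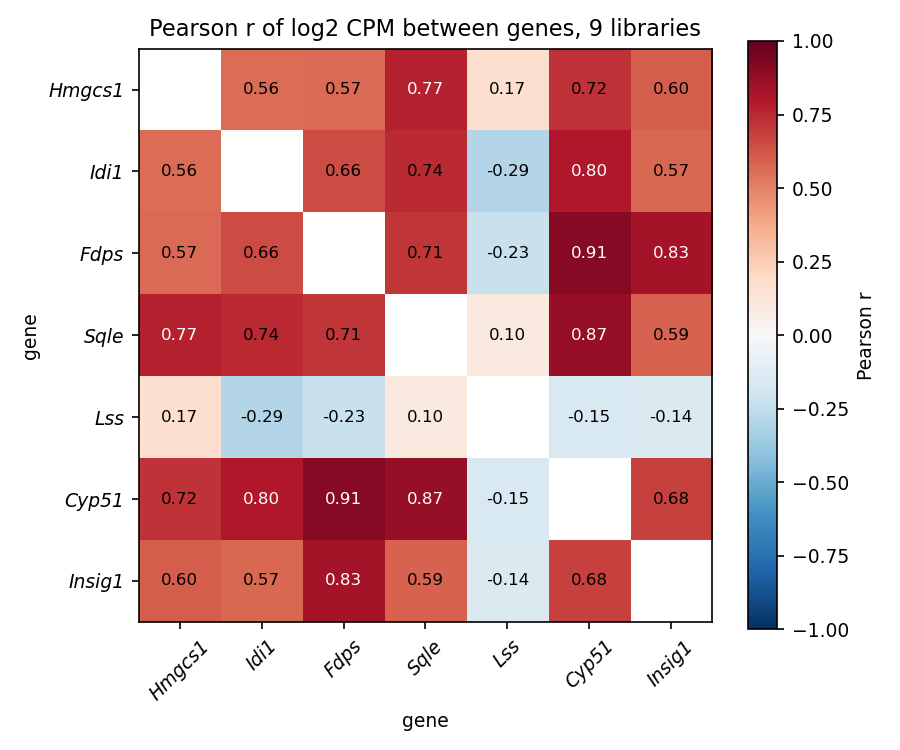
Pearson's r of log2 CPM for each pair of the 7 genes over the 9 libraries (color scale and printed value from -1 to 1). All pairs among the genes other than Lss are positive, with Fdps and Cyp51 highest at 0.907, and the row of Lss holds all 4 negative values.

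Among 7416 genes with a mean log2 CPM of at least 4, the 5 whose levels were most like the mean of the 7 genes included Zswim4 (r = 0.947), Fbxo38 (0.936) and Ubash3b (0.93), over 9 libraries. Srebf2, which encodes SREBP2, ranked 11 with r = 0.914, with 120.4, 139.9 and 147.3 CPM in the vehicle group, 111.5, 123.9 and 110.4 CPM in the spironolactone group and 169.4, 124.0 and 132.1 CPM in the prednisolone group.

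Of the 17 other enzymes of the pathway 16 could be tested, since Idi2 was near 0. Relative to vehicle 0 of 16 passed by edgeR and 0 by DESeq2 with either drug. At an unadjusted p under 0.05 by edgeR were 0 and 2 for prednisolone and spironolactone, against 14.2% and 9.29% of all genes. Between the drugs 1 of 16 passed by both tools, Hsd17b7, an enzyme of the steps after lanosterol, against 5.17% of all genes by edgeR and 10.1% by DESeq2. At an unadjusted p under 0.05 by edgeR, 4 of 16 were lower with spironolactone and 0 higher, against 22.5% of all genes in either direction. Hsd17b7 was at 2.65, 5.27 and 4.24 CPM with vehicle, 2.37, 2.43 and 2.53 CPM with spironolactone and 6.17, 4.98 and 5.26 CPM with prednisolone, so that the spironolactone libraries lay below all others. Hsd17b7 was lower with spironolactone than with prednisolone by a log2 fold change of -1.16 ± 0.25 (edgeR adjusted p = 0.0188). Leaving out 1 library gave adjusted p from 0.00301 to 0.0840, and the call was lost without spironolactone replicate 2 or 3 or any 1 prednisolone library.

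The remaining enzymes showed smaller differences. With spironolactone relative to vehicle 12 of 16 estimates were below 0 with a median of -0.11, and between the drugs 12 of 16 with a median of -0.15, whereas with prednisolone relative to vehicle 6 of 16 were below 0 with a median of 0.06. Between the drugs Msmo1, which removes methyl groups from the ring after Cyp51, was at -0.39 (adjusted p = 0.163), Acat2, which joins acetyl-CoA units, at -0.35 (adjusted p = 0.610), and Fdft1, squalene synthase, at -0.26 (adjusted p = 0.345). Sc5d was at -0.21, Dhcr7 at -0.15, Nsdhl at -0.14, Lbr at -0.12, Tm7sf2 at -0.08 and Ebp at -0.05. On the other side of 0 were the mevalonate kinase Mvk (0.28, adjusted p = 0.259), Erg28 (0.13), Pmvk (0.06) and Mvd (0.05).

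**Figure D5:**
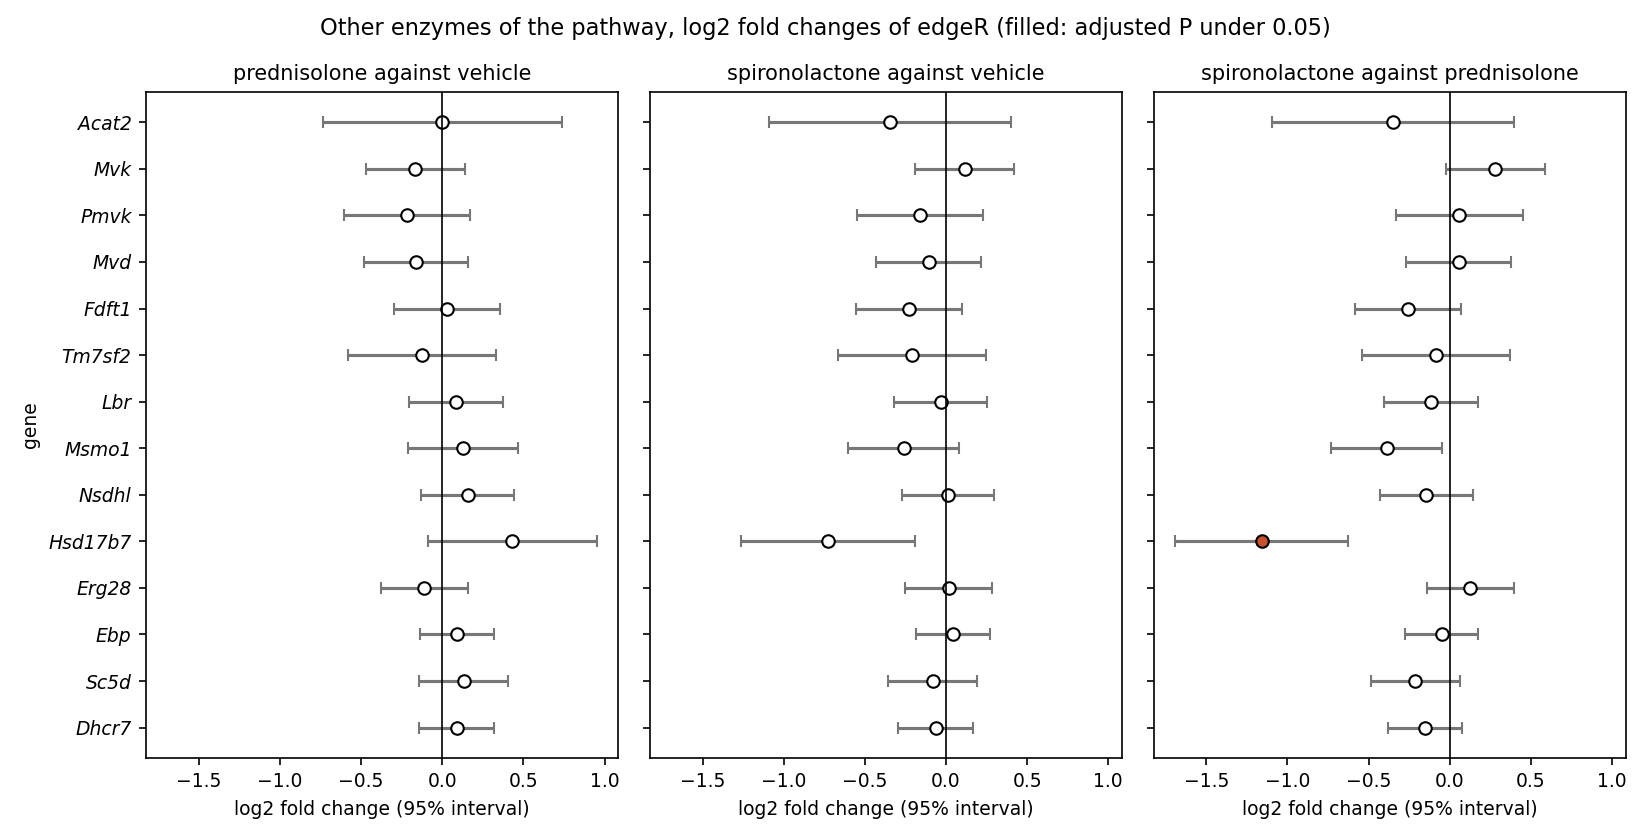
Log2 fold changes (points) with 95% intervals (bars) by edgeR of 14 of the 16 other enzymes of the pathway that could be tested, in the 3 comparisons, filled symbols marking adjusted p under 0.05. The only filled symbol is Hsd17b7 for spironolactone against prednisolone, at -1.16.

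Of 9 genes that regulate SREBP, 0 passed by edgeR in any of the 3 comparisons, with 1, 0 and 5 at an unadjusted p under 0.05 for prednisolone against vehicle, spironolactone against vehicle and spironolactone against prednisolone. Over all genes these shares were 14.2%, 9.29% and 22.5%. Between the drugs 8 of 9 were below 0 with a median of -0.25. DESeq2 called 0 of the 9 against vehicle with either drug and 3 between the drugs (Mbtps1, Mbtps2 and Srebf1, all lower with spironolactone), where it called 10.1% of all genes. By edgeR the proteases that release SREBP were at -0.28 (Mbtps1, adjusted p = 0.0635) and -0.52 (Mbtps2, adjusted p = 0.0638), Srebf1 was at -0.25 (adjusted p = 0.0817), Srebf2 at -0.30 (adjusted p = 0.154), Scap at -0.20 (adjusted p = 0.208) and Insig2 at -0.25 (adjusted p = 0.333). The ubiquitin ligase genes Rnf139 and Rnf145 were at 0.08 and -0.07.

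Genes of sterol uptake, efflux and storage included members that were higher with spironolactone than with prednisolone. Of 11 tested uptake and transport genes 3 were higher and 3 lower with spironolactone at an unadjusted p under 0.05 by edgeR (22.5% of all genes in either direction). The median of the list was -0.07. DESeq2 called 3 higher and 1 lower, where it called 10.1% of all genes. After adjustment edgeR called 3 higher and 0 lower between the drugs, where it called 5.17% of all genes. They were Scarb1, a lipoprotein receptor (log2 fold change 0.37 ± 0.09, edgeR adjusted p = 0.0384), Mylip, a ubiquitin ligase that limits lipoprotein uptake (0.40 ± 0.10, adjusted p = 0.0445), and Stard3, a carrier of sterol between membranes (0.36 ± 0.09, adjusted p = 0.0323). The most abundant genes of this list, Lrp1 and Npc2, were at -0.45 (adjusted p = 0.144) and 0.04 (adjusted p = 0.878). Of 10 genes of efflux and storage 1 was higher, Cyp27a1, which oxidises cholesterol to an LXR ligand (0.60 ± 0.15, adjusted p = 0.0356), while Apoe was at 0.45 (adjusted p = 0.229) and Abca1 at -0.46 (adjusted p = 0.141). Against vehicle 0 genes of both lists passed with either drug, with 3 uptake and 3 efflux genes at an unadjusted p under 0.05 for prednisolone and 1 and 0 for spironolactone. DESeq2 called Stard3 and Cyp27a1 lower with prednisolone than with vehicle, where it called 4.64% of all genes. Between the drugs DESeq2 called 1 efflux gene higher with spironolactone (Cyp27a1) and 1 lower (Abca1). By edgeR 2 efflux genes were higher and 1 lower in that comparison at an unadjusted p under 0.05. Each of the 4 edgeR calls was lost without any 1 spironolactone or prednisolone library, except that Cyp27a1 kept its call without spironolactone replicate 1. Mylip also lost its call without vehicle replicate 2 (adjusted p = 0.0572), and Cyp27a1 with the replicate number as a block (adjusted p = 0.0580). The log2 fold changes with 1 library left out were 0.31 to 0.41 for Scarb1, 0.34 to 0.44 for Mylip, 0.32 to 0.39 for Stard3 and 0.50 to 0.68 for Cyp27a1.

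Of 11 tested genes of fatty acid synthesis, which SREBP1 controls, 2 were lower with spironolactone than with prednisolone and 0 higher by edgeR, against 5.17% of all genes called in either direction. The list had a median of -0.30 and values from -0.66 to 0.57. In that comparison 7 of the 11 were lower at an unadjusted p under 0.05 by edgeR, against 22.5% of all genes in either direction. DESeq2 called 4 lower (Acaca, Acss2, Fads1 and Fasn), against 10.1% of all genes in either direction. Fasn, fatty acid synthase, was at 43.5, 53.4 and 45.5 CPM with vehicle, 41.2, 49.2 and 45.8 CPM with spironolactone and 80.9, 60.8 and 60.6 CPM with prednisolone, which was above all other libraries. The difference between the drugs was -0.57 ± 0.12 for Fasn (edgeR adjusted p = 0.0203) and -0.42 ± 0.11 for the desaturase Fads1 (adjusted p = 0.0391), whereas Acly was at -0.21 (adjusted p = 0.161) and Elovl5 at -0.07 (adjusted p = 0.676). The call of Fasn was lost without spironolactone replicate 1 or 3 or prednisolone replicate 1, and that of Fads1 without any 1 spironolactone or prednisolone library. Relative to vehicle the prednisolone values were 0.51 for Fasn (edgeR adjusted p = 0.0596) and 0.43 for Fads1 (adjusted p = 0.0654). By edgeR 0 of the 11 genes passed with either drug. At an unadjusted p under 0.05 were 3 and 0 for prednisolone and spironolactone, against 14.2% and 9.29% of all genes. DESeq2 called 2 of the 11, Fasn and Fads1, higher with prednisolone than with vehicle, against 4.64% of all genes in either direction. Of 11 genes of the isoprenoid branches 0 passed in any comparison by edgeR (0, 0 and 2 at an unadjusted p under 0.05, against 14.2%, 9.29% and 22.5% of all genes) and 1, Nus1, by DESeq2 between the drugs (10.1% of all genes). They included Nus1 (-0.29 between the drugs, edgeR adjusted p = 0.0817) and Dhdds (-0.23, adjusted p = 0.149), the subunits that make dolichol.

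Markers of some cell types moved with these levels, and those of others did not. The r to the mean of the 7 genes was 0.638 for the myeloid, -0.301 for the endothelial and -0.407 for the skeletal muscle list. It was -0.413 for the fibro-adipogenic, -0.505 for the lymphocyte and -0.571 for the erythroid list. After removal of group means these 6 values were 0.619, 0.502, -0.0358, -0.0418, -0.0952 and -0.178 in the same order. Counts of markers stand beside the shares over all genes, for prednisolone against vehicle, spironolactone against vehicle and spironolactone against prednisolone in turn. These were 1.76%, 0.0181% and 5.17% called by edgeR, 4.64%, 1.6% and 10.1% called by DESeq2, and 14.2%, 9.29% and 22.5% at an unadjusted p under 0.05 by edgeR. Across the 9 libraries the mean of the 6 monocyte markers had an r of 0.742 to the mean of the 7 genes, and 0.751 after removal of group means, with Vcan at 0.846 and F13a1 at 0.737 but Ly6c2 at 0.223 and Plac8 at 0.204. The summed monocyte level was 1497 to 3077 CPM with vehicle, 1798 to 2121 CPM with spironolactone and 2638 to 3446 CPM with prednisolone, and 1 of 6 markers, F13a1, was lower with spironolactone than with prednisolone (log2 fold change -0.88, edgeR adjusted p = 0.00359). DESeq2 called 3 of the 6, Chil3, F13a1 and Vcan, lower between the drugs, and 3 had an unadjusted p under 0.05 by edgeR in that direction. Against vehicle edgeR called 0 of the 6 with either drug (2 higher with prednisolone and 1 lower with spironolactone at an unadjusted p under 0.05), and DESeq2 called F13a1 higher with prednisolone. The markers did not go one way, since Vcan and Chil3 averaged 211.6 and 431.8 CPM with spironolactone against 487.2 and 1141 CPM with prednisolone, while Ly6c2, Plac8 and Ccr2 averaged 239.2, 112.5 and 588.9 CPM against 145.6, 61.28 and 532.1 CPM. Itgam (CD11b), with an r of 0.783 to the 7 genes, was also lower with spironolactone than with prednisolone (1044 against 1407 CPM, log2 fold change -0.43, edgeR adjusted p = 0.0353). It was the 1 of 8 myeloid markers that edgeR called between the drugs, while 2 were higher with spironolactone at an unadjusted p under 0.05. Fcgr1 averaged 449.7 CPM with spironolactone against 325.8 CPM with prednisolone, and Cd68 3015 against 2519 CPM. Their r to the 7 genes was 0.0589 and -0.253. In bulk RNA, fewer cells of a type and less RNA per cell cannot be told apart. The spironolactone libraries had higher levels of markers of cells that the gate should leave out than the prednisolone libraries, with 115.1 to 178.0 against 65.96 to 92.36 CPM for 7 endothelial markers (3 called by edgeR, 5 by DESeq2), 183.1 to 297.8 against 36.38 to 78.67 CPM for the erythroid markers (3 of 4 tested called by edgeR, 4 by DESeq2) and 13.48 to 16.81 against 4.89 to 8.08 CPM for 6 lymphocyte markers (3 called by edgeR, 4 by DESeq2). In the vehicle libraries the same sums were 51.94 to 88.87, 68.76 to 132.2 and 8.86 to 11.62 CPM, and against vehicle edgeR called 0 of these endothelial, erythroid and lymphocyte markers higher with spironolactone (6, 4 and 3 at an unadjusted p under 0.05) and DESeq2 5, 1 and 0. Summed skeletal muscle markers were at 193.2 to 300.9 CPM with vehicle, 364.9 to 618.8 with spironolactone and 304.3 to 467.5 with prednisolone, with 0 of 7 tested markers called between the drugs by edgeR (2 at an unadjusted p under 0.05, 2 by DESeq2). Relative to vehicle 1 muscle marker, Myh1, was higher with prednisolone by both tools (6.55 against 3.12 CPM, log2 fold change 1.07, edgeR adjusted p = 0.0239). The fibro-adipogenic markers were at 614.5 to 873.4, 806.3 to 1183 and 767.3 to 872.4 CPM. DESeq2 called 4 muscle and 2 fibro-adipogenic markers higher with spironolactone than with vehicle, and edgeR 0 and 0 (5 and 4 at an unadjusted p under 0.05). Cell cycle genes, of which 5 of 14 were higher with prednisolone than with vehicle by edgeR (10 by DESeq2) and 5 lower with spironolactone than with prednisolone (7 by DESeq2), and the summed level was 933.6 to 981.3 against 538.4 to 780.6 CPM, had an r of -0.112 to the 7 genes, and of -0.794 after removal of group means. Neutrophil markers had an r of -0.19, and 0 of 7 were called in any comparison by edgeR (1, 0 and 1 at an unadjusted p under 0.05, and 0, 0 and 1 by DESeq2). The part of these cell types in the levels of the cholesterol synthesis genes was not tested.

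Stress and receptor-responsive genes were read in the same fit, with the same shares over all genes. Of 7 dissociation and stress genes 4 (Jun, Atf3, Hspa1a and Hspa1b) were lower with prednisolone than with vehicle by edgeR (5 by DESeq2) and 4 higher with spironolactone than with prednisolone (4 by DESeq2), and the list had an r of -0.00853 to the 7 genes. Of 6 genes known to be induced by glucocorticoids 0 were higher and 1, Per1, was lower with prednisolone than with vehicle by edgeR (105.0 against 244.8 CPM, log2 fold change -1.22, adjusted p = 0.00436; 0 higher and 5 lower at an unadjusted p under 0.05, 0 and 4 by DESeq2), and their r to the 7 genes was 0.0405. With spironolactone relative to vehicle 5 of these 6 were lower at an unadjusted p under 0.05, 0 passed by edgeR and 3 by DESeq2. Samples were grouped by their labels as given.

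In the annotation (GENCODE on GRCm39) Hmgcs1 lies at chr13:120151915-120170470, Idi1 at chr13:8935537-8942487, Sqle at chr15:59186869-59203043, Lss at chr10:76367298-76392976 and Insig1 at chr5:28276315-28283668 on the plus strand, and Fdps at chr3:89000888-89019213 and Cyp51 at chr5:4123416-4154751 on the minus strand. Exons of genes on the opposite strand overlap those of Hmgcs1 (Nim1k), Sqle (Washc5), Cyp51 (Akap9) and, by predicted genes, Idi1 and Lss. Whether counting used the strand is not given in the sources used here, and without it, reads of such partners cannot be told apart.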

How the data were processed

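RNA of 9 pools was sequenced by DNBSEQ. Per the labels and the study's methods, the authors aligned reads to mm39 with HISAT2 (version 2.2.1 in the submitters' processing notes) and counted them per gene with HTSeq (0.11.3); the deposited values are whole-number counts without normalization. The annotation release and the strand setting are not given in the sources used here. Lines without a gene (17.2% to 21.8% of all counts of a library, and among them, as shares of all counts, 6.81% to 10.4% from reads that aligned at more than 1 place) were left out. The 3 deposited tables of the authors' comparisons, with log2 fold changes, standard errors and p-values by DESeq2 (1.32.0), were not used.

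Counts were filtered (filterByExpr, minimum count 10, 16618 of 50559 genes kept), normalized by TMM and tested with edgeR 4.0.16 (glmQLFit and glmQLFTest, R 4.3.3) in 1 model of the 3 groups, all 9 libraries sharing 1 estimate of the spread. The p-values were adjusted by Benjamini and Hochberg's method across the 16618 genes, and the threshold was 0.05. Levels are TMM-scaled CPM. TPM used the summed exon length of GENCODE genes. Mean z scores and correlations used log2 CPM with a prior count of 2. The test script was checked on simulated data. Libraries of a group differed beyond sampling noise (chi-square per degree of freedom 18 to 57.8), so each was counted as 1 sample.

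The members and the gene lists were chosen with earlier results of these data known, so list counts are descriptions. The genes named were the 7 members, all other enzymes and regulators of SREBP, the called genes and up to 2 most abundant genes of the other lists, and the 5 genes most like the members; a few of these are not reported here, although list counts and medians include them. Marker and stress lists are given mainly by counts. Alternatives were DESeq2 1.42.0, edgeR on the 2 groups compared, RLE factors, library totals, no filter, the replicate number as a block, log2 CPM of Xist as a covariate (the pools hold both sexes) and leaving out each library.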

Additional observations from a re-analysis of the deposited data

How the results depend on the processing

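Of the 49 fold changes of the members under other settings, 46 kept direction and side of the threshold for prednisolone against vehicle, 48 for spironolactone against vehicle and 46 for spironolactone against prednisolone, and of 63 with 1 library left out 55, 62 and 61 did. The members called between the drugs were 1 with DESeq2 (Sqle, adjusted p = 0.0386) and 2 without the filter on low counts (Sqle, adjusted p = 8.69e-05, and Cyp51, adjusted p = 0.0113), and for spironolactone against vehicle 1 without the filter (Cyp51, adjusted p = 0.0372), where the standard error of Cyp51 was 0.1244 against 0.24. The other enzymes called between the drugs were 2 in the fit of the 2 groups alone and 3 without the filter, and 1 was called for spironolactone against vehicle without it; with 1 library left out they ranged from 0 to 2. The cause was not tested. Of the 7 genes of the sterol and fatty acid lists called between the drugs, Hsd17b7, Fasn and Stard3 were called under all 7 settings other than leaving out a library, Fads1 under 6, Scarb1 under 5, and Mylip and Cyp27a1 under 4.

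Changes of sign concerned estimates near 0. For prednisolone against vehicle, Cyp51 was at 0.0222 with library totals and 0.0091 without the filter. With 1 library left out, the same comparison gave -0.239 to 0.258 for Cyp51, -0.155 to 0.219 for Idi1, -0.0313 to 0.334 for Lss and -0.0940 to 0.0069 for Hmgcs1. Spironolactone against vehicle gave 0.139 for Lss without vehicle replicate 1, with a range of -0.162 to 0.139, and between the drugs Insig1 ranged from -0.156 to 0.0738. Over all genes, 293, 3 and 859 were called for prednisolone against vehicle, spironolactone against vehicle and spironolactone against prednisolone, against 684, 263 and 1594 by DESeq2 and 1019, 528 and 1940 without the filter, 4 and 1598 for the 2 spironolactone comparisons in the fits of 2 groups, and 69 to 826, 0 to 34 and 232 to 1898 with 1 library left out.

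The correlation of deviations was -0.0502 to 0.169 between same-numbered libraries of different groups and -0.142 to 0.0444 between the others. The highest were vehicle with spironolactone replicate 3 (0.169) and vehicle with spironolactone replicate 1 (0.0944). Whether the replicate numbers pair the libraries was not tested. With the replicate block Cyp51 was at 0.0474 for prednisolone against vehicle, and 0 members were called in any comparison by edgeR. Over all genes the block fit called 336 for prednisolone against vehicle, 8 for spironolactone against vehicle and 1082 between the drugs. Without the block these were 293, 3 and 859. Of the members 0, 2 and 1 had an unadjusted p under 0.05 for prednisolone against vehicle, spironolactone against vehicle and spironolactone against prednisolone.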
